A study of Homo sapiens with 6 samples.

Results

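The genes described here are the transcription factor ATF4 and the genes of the amino acid response, 33 in all, taken from a table of 47102 gene names. They were chosen by name from knowledge of the pathway, with earlier results of these data already known. The list held 7 factors, 6 enzymes of serine and one-carbon metabolism, 5 other enzymes and transport factors, 8 amino acid transporters and 7 stress effectors. All 33 had 1 row each in the deposited table. Rows for ASNS, ATF5, DDIT3 and PYCR1 also named other genes, so their values may include transcripts of those neighbours, while the other 29 members stood alone.

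When amino acids run short or unfolded protein accumulates, kinases such as GCN2 and PERK phosphorylate the translation factor eIF2, which lowers general protein synthesis and favours translation of ATF4 mRNA. ATF4 protein then binds C/EBP-ATF response elements, usually with a C/EBP family partner, and activates genes that import amino acids, make serine, asparagine and proline, supply one-carbon units and charge tRNAs. In leukaemic cells this programme is known for meeting the demand for asparagine, serine and cystine. Because ATF4 is controlled largely at translation, its mRNA level is not a measure of its activity.

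RNA was sequenced from 3 libraries of FOXO3 knockout cells and 3 control libraries with wild-type FOXO3, all of the cell line labelled U-937, grown in RPMI medium with serum. The knockout was made with small guide RNAs against FOXO3 (FOXO3A in the labels), a forkhead transcription factor downstream of PI3K and AKT. The labels do not say whether the knockout cells were 1 clone or a pool, what guide the controls received, or whether replicate libraries were grown apart. The spread behind each p-value may therefore be technical. Values are FPKM, a read abundance scaled by transcript length and library size.

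Several facts of the whole series bear on every value below. U-937 is a line of monocytic character, yet all 9 T lineage markers examined were above the test's lower limit, with a summed level of 679 to 740 FPKM in knockout and 608 to 689 FPKM in control libraries. Among 8 monocyte and macrophage markers 7 were below that limit, FCGR1A and MNDA stood at the floor in every library, and the eighth, CD68, shared its row with other genes. The cells are therefore called here by their label only. FOXO3 mRNA was at 3.84 ± 0.346 FPKM in knockout and 4.04 ± 0.355 FPKM in control libraries (SD, n = 3 each; limma adjusted p = 0.732; exact two-sided permutation p = 0.5, where 0.1 is the smallest that 3 against 3 libraries allow), so the mRNA level does not tell the genotypes apart; guide RNA edits can leave an mRNA in place. Depth, read from the step size of low FPKM values, came to 4.26 to 4.79 gigabases of aligned sequence in knockout and 4.37 to 5.71 in control libraries. The second control library lay farthest from the knockout libraries, with a mean correlation of 0.950 with them across genes against 0.964 and 0.969 for the other controls. In bulk RNA, fewer cells of a kind and less RNA per cell cannot be told apart.

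To show what the response element looks like beside these genes, RefSeq promoters (GRCh38.p14, 250 bases before to 50 after each start) were searched for TGATGNAA on both strands. RefSeq entries were found for 26 of the 33 members, with 41 promoters among them. The letters occurred in 8 of these 41 promoters (19.5%), each of a different gene, and in 1270 of all 35116 promoters (3.62%). Promoters of 1 gene can overlap, and a match of letters is a description, not a bound site. Each element is given below with its flanks, 30 bases in all, turned so that the element in capitals reads from the T of TGATGNAA. The member elements are followed by those of AARS and CARS. Of the 16 cytosolic tRNA synthetase genes with a RefSeq entry, among 20 listed, 7 held the letters. By promoter this was 7 of 21 (33.3%). AARS and CARS are shown because their mRNA fell, as described further on. The other synthetase genes with the letters were not called and are not shown.
ATF3 (chr1:212565205-212565234, plus strand, upstream of the gene): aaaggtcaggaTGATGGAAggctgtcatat
SLC1A4 (chr2:64989381-64989410, minus strand, intron): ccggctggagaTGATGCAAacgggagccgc
ASNS (chr7:97872458-97872487, minus strand, exon): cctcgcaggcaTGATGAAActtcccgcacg
SLC3A2 (chr11:62881719-62881748, minus strand, exon): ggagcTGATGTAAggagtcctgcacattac
SLC7A1 (chr13:29595663-29595692, minus strand, exon): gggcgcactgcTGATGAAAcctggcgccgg
CHAC1 (chr15:40953251-40953280, minus strand, exon): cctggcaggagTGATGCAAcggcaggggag
CEBPG (chr19:33374060-33374089, plus strand, intron): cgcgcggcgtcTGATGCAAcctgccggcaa
SLC1A5 (chr19:46784893-46784922, minus strand, exon): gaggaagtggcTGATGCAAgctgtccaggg
CARS (chr11:3057407-3057436, plus strand, exon): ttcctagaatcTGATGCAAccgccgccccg
AARS (chr16:70289675-70289704, plus strand, upstream of the gene): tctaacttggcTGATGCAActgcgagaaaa
The place of each element (upstream, exon or intron) is that of GENCODE release 29 for any transcript of the named gene. CHAC1, CEBPG, SLC1A4, SLC1A5, AARS and CARS shared the core TGATGCAA, and ASNS and SLC7A1 shared TGATGAAA.

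In the comparison of knockout with control libraries, most members of the amino acid response were lower by small amounts, and 1 passed the test. PHGDH fell, 0 members rose and 28 did not pass, of 29 tested (limma on log2(FPKM + 1), adjusted over 11162 names with a mean of at least 1 FPKM). The background was 2.68% of names changed in either direction, 1.30% as falls and 1.38% as rises, so a single call among 29 is near the background. Over all names 154 rose and 145 fell, and under upper-quartile scaling 170 rose and 260 fell. Of the 29, 22 had a negative and 7 a positive log2 fold change (median −0.20), against 46.6% of all names lower and a median of 0.02. Every knockout library lay below every control library in 16 of the 29, or 55.2%, where the background was 14.7%, and above in 1, where the background was 17.7%. Without adjustment 15 members were lower at a p below 0.05 (background 10.7%) and 2 higher (background 14.9%). ATF3, among the 16 and the 15, met the 1 FPKM limit only through its control libraries. These shares are set beside the background as a description only. The members share a pathway, were chosen with earlier results of these data known and were not tested as a list.

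**Figure D1:**
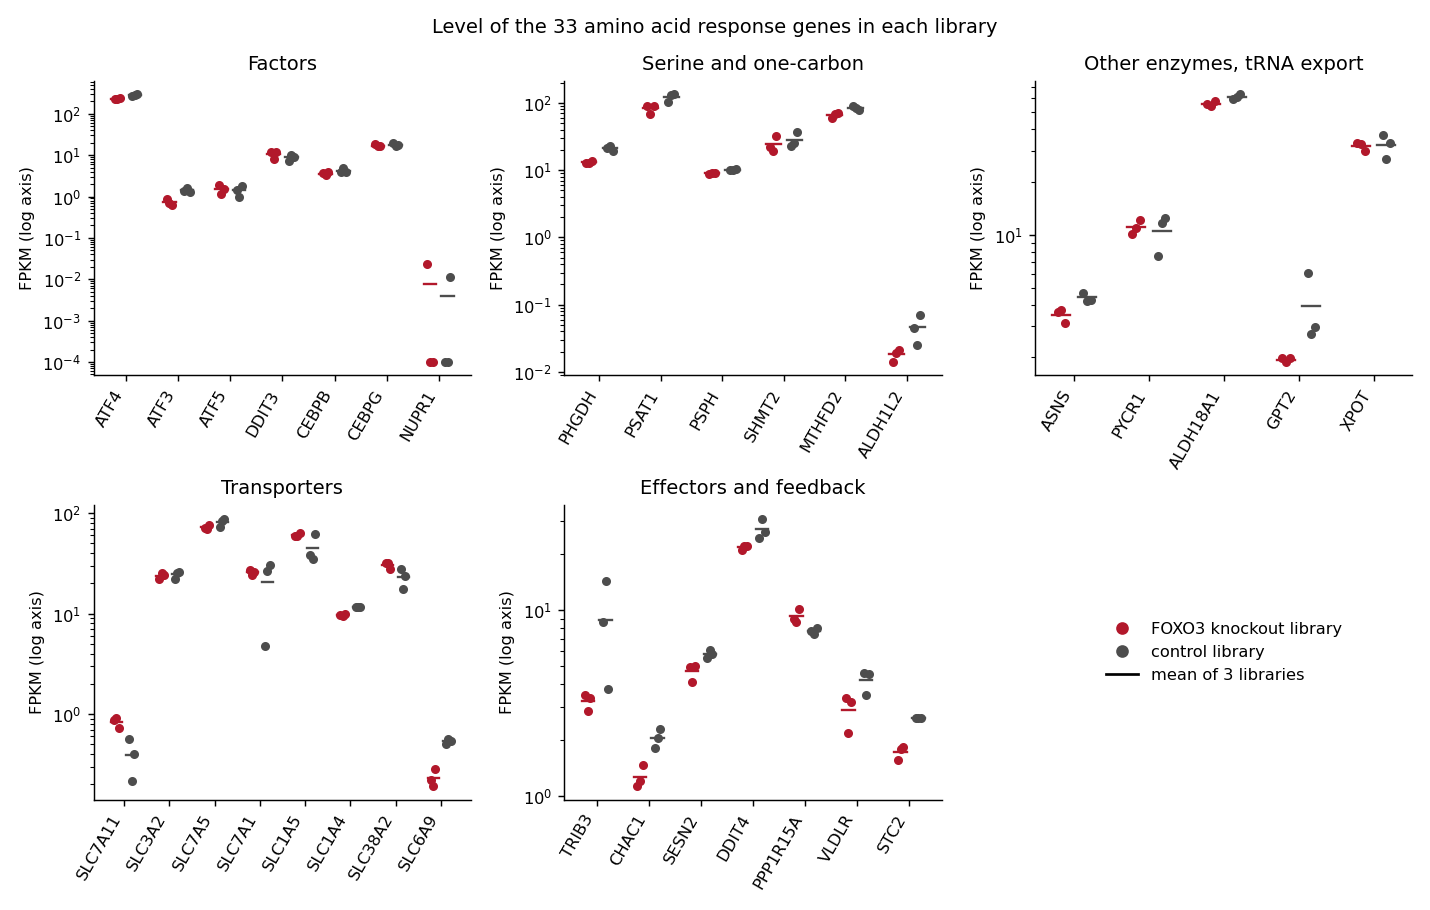
Level of each of the 33 genes in FPKM on a log axis, by class, with the 3 knockout libraries left (red) of the 3 control libraries (grey) and a line at each mean. PHGDH, ATF4, STC2 and CHAC1 show 3 knockout points below all 3 control points. SLC7A1 and GPT2 show 1 control library far from the other controls, and the 3 controls of TRIB3 all differ.

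**Figure D2:**
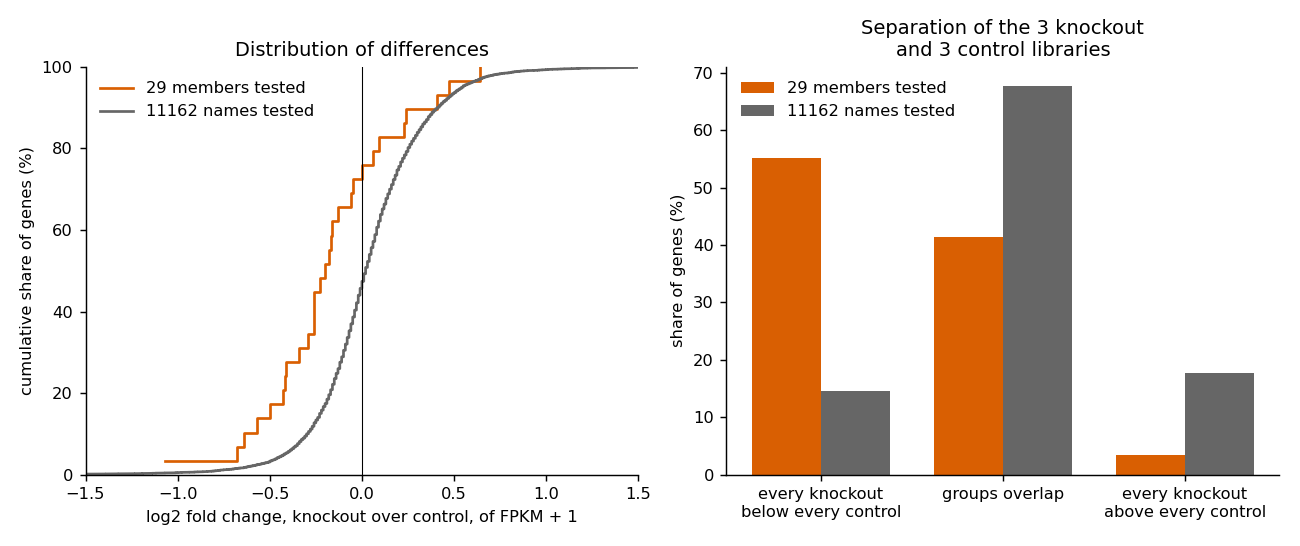
Left, cumulative share of genes by log2 fold change (knockout over control, of FPKM + 1) for the 29 tested members and all 11162 names tested, drawn between −1.5 and 1.5. Right, share of genes in which every knockout library was below every control, the groups overlapped, or every knockout was above every control: 55.2% of members fell in the first class against 14.7% of all names.

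ATF4 heads the response, and its mRNA was the most abundant of the 33. Its locus is chr22:39519695-39522685, plus strand (GRCh38). It was at 233, 228 and 242 FPKM in the knockout libraries, against 267, 279 and 295 FPKM in the controls. All knockout libraries were below all controls, by a margin larger than the SD of either group (234 ± 6.92 and 280 ± 14.5 FPKM, SD, n = 3 each). The log2 fold change was −0.26 (SE 0.06, 95% interval −0.41 to −0.11), which did not pass the threshold after adjustment (limma adjusted p = 0.0754), and it was −0.11 with quantile normalization (adjusted p = 0.261). Once a trend with transcript GC content and length was removed from each library, the difference was −0.24 and passed (adjusted p = 0.0423). Of 4 ATF4 pseudogenes in the annotation 1 had a mean above 1 FPKM, at 2.21 FPKM, small beside the level of the gene.

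ATF3, a stress-induced partner and target of ATF4, was at 0.867, 0.699 and 0.615 FPKM in knockout libraries, against 1.39, 1.61 and 1.31 FPKM in controls. The groups did not overlap, but the adjusted p was 0.0536 (log2 fold change −0.50, SE 0.10), with 0.0472 under upper-quartile scaling and 0.0492 once the GC and length trend was removed. Its mean over all 6 libraries sat just above the 1 FPKM limit, with 0.727 FPKM in knockout and 1.44 FPKM in control libraries. It was therefore tested only because its control level was the higher, and without the second control it was no longer tested. DDIT3, which encodes the pro-apoptotic factor CHOP, was at 12.2, 7.92 and 11.9 FPKM in knockout and 7.08, 10.1 and 9.25 FPKM in control libraries, with overlapping groups (adjusted p = 0.463) and a log2 fold change between 0.11 and 0.43 with 1 library left out. The other factors overlapped as well. CEBPG, a C/EBP partner of ATF4, averaged 17.1 ± 0.944 FPKM in knockout and 17.9 ± 1.23 FPKM in control libraries, with a 95% interval of the log2 difference from −0.25 to 0.13; once the GC and length trend was removed the difference was −0.28 (adjusted p = 0.072). CEBPB averaged 3.60 ± 0.358 and 4.21 ± 0.585 FPKM in knockout and control libraries. ATF5 averaged 1.51 ± 0.352 FPKM in knockout and 1.41 ± 0.396 FPKM in control libraries (SD, n = 3 each; adjusted p 0.361 to 0.841 for these 3 factors), and its log2 fold change of 0.06 turned to −0.07 without the second control and −0.04 without the first knockout library. NUPR1, a stress-induced chromatin protein, was at the floor value in 2 libraries of each group and at most at 0.0234 FPKM, and was not tested.

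Serine synthesis held the 1 member that changed. PHGDH, the first enzyme of the pathway, which oxidises 3-phosphoglycerate, is encoded at chr1:119648411-119744226, plus strand. It was at 12.7, 12.6 and 13.9 FPKM in knockout libraries, against 21.1, 23.1 and 19.0 FPKM in controls. It fell to 13.1 ± 0.676 FPKM in knockout libraries, against 21.1 ± 2.04 FPKM in controls (SD, n = 3 each), a log2 fold change of −0.64 (SE 0.09, 95% interval −0.86 to −0.43, limma adjusted p = 0.0225). The call was lost without any 1 of the 3 knockout libraries (adjusted p = 0.0935, 0.109 and 0.072) and without the second control (0.0525), with the log2 fold change between −0.71 and −0.58 over all 6 such fits.

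The following steps of the same pathway were lower without passing. PSAT1, the aminotransferase of the next step, was at 90.6, 67.5 and 91.3 FPKM in knockout libraries, against 104, 131 and 134 FPKM in controls (log2 fold change −0.57, SE 0.15, adjusted p = 0.0896). PSPH, the phosphatase that releases serine, was at 8.68 to 9.23 FPKM in knockout and 9.94 to 10.4 FPKM in control libraries, a small difference without overlap (log2 fold change −0.16, adjusted p = 0.181, and −0.08 once the GC and length trend was removed). The pseudogene PSPHP1 stood at a mean of 8.92 FPKM, close to PSPH itself, so reads may be split between them.

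Mitochondrial one-carbon enzymes were measured next to them. MTHFD2, a dehydrogenase and cyclohydrolase of mitochondrial folate, was at 60.7, 67.8 and 69.7 FPKM in knockout libraries, against 89.9, 83.0 and 78.1 FPKM in controls. The lowest control was above the highest knockout library (log2 fold change −0.34, SE 0.08, adjusted p = 0.0764, or 0.0424 once the GC and length trend was removed). SHMT2, which moves a carbon from serine to folate in mitochondria, varied more within each group than between them, at 22.1, 19.4 and 32.1 FPKM in knockout and 22.8, 25.4 and 36.9 FPKM in control libraries (adjusted p = 0.623, with a log2 fold change between −0.41 and −0.01 with 1 library left out). ALDH1L2, the mitochondrial formyltetrahydrofolate dehydrogenase, was almost absent, at 0.0140 to 0.0215 FPKM in knockout and 0.0250 to 0.0713 FPKM in control libraries, below the limit for testing.

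Among enzymes of other amino acids, ASNS, the asparagine synthetase and a classical ATF4 target, was at 3.64, 3.70 and 3.12 FPKM in knockout libraries, against 4.68, 4.21 and 4.27 FPKM in controls. Its groups did not overlap (log2 fold change −0.26, SE 0.09, adjusted p = 0.133, or 0.0495 once the GC and length trend was removed), but its row was shared with other names. ALDH18A1, which starts proline synthesis from glutamate, averaged 56.0 ± 1.69 FPKM in knockout and 61.3 ± 1.72 FPKM in control libraries (adjusted p = 0.214). PYCR1, the last enzyme of proline synthesis, averaged 11.1 ± 1.03 FPKM in knockout and 10.5 ± 2.58 FPKM in control libraries (adjusted p = 0.780; the difference turned negative, −0.11 on the log2 scale, without the first control). GPT2, the mitochondrial alanine aminotransferase, was nearly constant in knockout libraries at 1.98, 1.88 and 1.97 FPKM, against 6.07, 2.72 and 2.99 FPKM in controls. The first control stood well above the other controls, and the log2 fold change of −0.68 had a wide SE of 0.24 (adjusted p = 0.150; −0.39 without that library). XPOT, the tRNA exporter, overlapped between groups, at 32.0 ± 1.79 FPKM in knockout and 32.4 ± 5.02 FPKM in control libraries, and its difference was −0.24 on the log2 scale once the GC and length trend was removed.

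Amino acid transporters had no common direction. Of 8 members 6 were tested, 3 of them lower and 3 higher (median log2 fold change 0.18). Without the first control 4 were lower and 2 higher, and the median turned to −0.13. None passed the limma threshold, 0 of 6, and at an unadjusted p below 0.05 there was 1 lower and 1 higher. SLC1A4, a carrier of neutral amino acids including serine, was the tested transporter whose groups did not overlap, at 9.69, 9.52 and 10.05 FPKM in knockout libraries, against 11.5, 11.6 and 11.7 FPKM in controls (log2 fold change −0.23, SE 0.06, adjusted p = 0.0891). SLC38A2, a sodium-coupled carrier of glutamine and other neutral amino acids, was at 31.6, 31.8 and 27.7 FPKM in knockout libraries, against 28.0, 17.6 and 23.4 FPKM in controls (log2 fold change 0.41, adjusted p = 0.188). The difference was 0.23 without the second control and 0.14 once the GC and length trend was removed. The groups overlapped because the third knockout library lay just below the first control.

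SLC1A5, the glutamine carrier ASCT2, was at 59.3, 59.4 and 64.0 FPKM in knockout libraries, against 38.0, 34.7 and 62.5 FPKM in controls. The third control thus stood among the knockout libraries. Over all 6 libraries the log2 fold change was 0.47 (SE 0.21, adjusted p = 0.222), and without the third control it was 0.73 and passed (adjusted p = 0.0361). SLC7A1, the cationic carrier of arginine and lysine, was at 26.9, 24.0 and 26.1 FPKM in knockout libraries, against 4.74, 26.8 and 30.4 FPKM in controls. Its positive log2 fold change of 0.64 (95% interval −0.87 to 2.15) turned to −0.15 without the first control. SLC7A5 and SLC3A2, the light and heavy chains of the leucine carrier LAT1, overlapped between groups. SLC7A5 averaged 72.2 ± 4.26 FPKM in knockout and 81.2 ± 8.14 FPKM in control libraries, and SLC3A2 averaged 23.8 ± 1.56 FPKM in knockout and 24.6 ± 2.18 FPKM in control libraries (adjusted p = 0.302 and 0.768). The log2 fold change of SLC3A2 was −0.05 and turned to 0.02 once the GC and length trend was removed.

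A pair of transporters lay below the limit for testing, and their groups did not overlap. How often groups fail to overlap among names below that limit was not computed, so their separation is given as values only. SLC7A11, the light chain of the cystine and glutamate exchanger, which pairs with SLC3A2, was at 0.865, 0.915 and 0.721 FPKM in knockout libraries, against 0.564, 0.214 and 0.402 FPKM in controls. SLC6A9, the glycine carrier GLYT1, was at 0.219, 0.191 and 0.284 FPKM in knockout libraries, against 0.508, 0.569 and 0.538 FPKM in controls. They moved in opposite directions, SLC7A11 higher and SLC6A9 lower. With no filter on low values, over 25284 names of which 0.763% were called, the limma adjusted p was 0.168 for SLC7A11 and 0.0628 for SLC6A9.

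**Figure D3:**
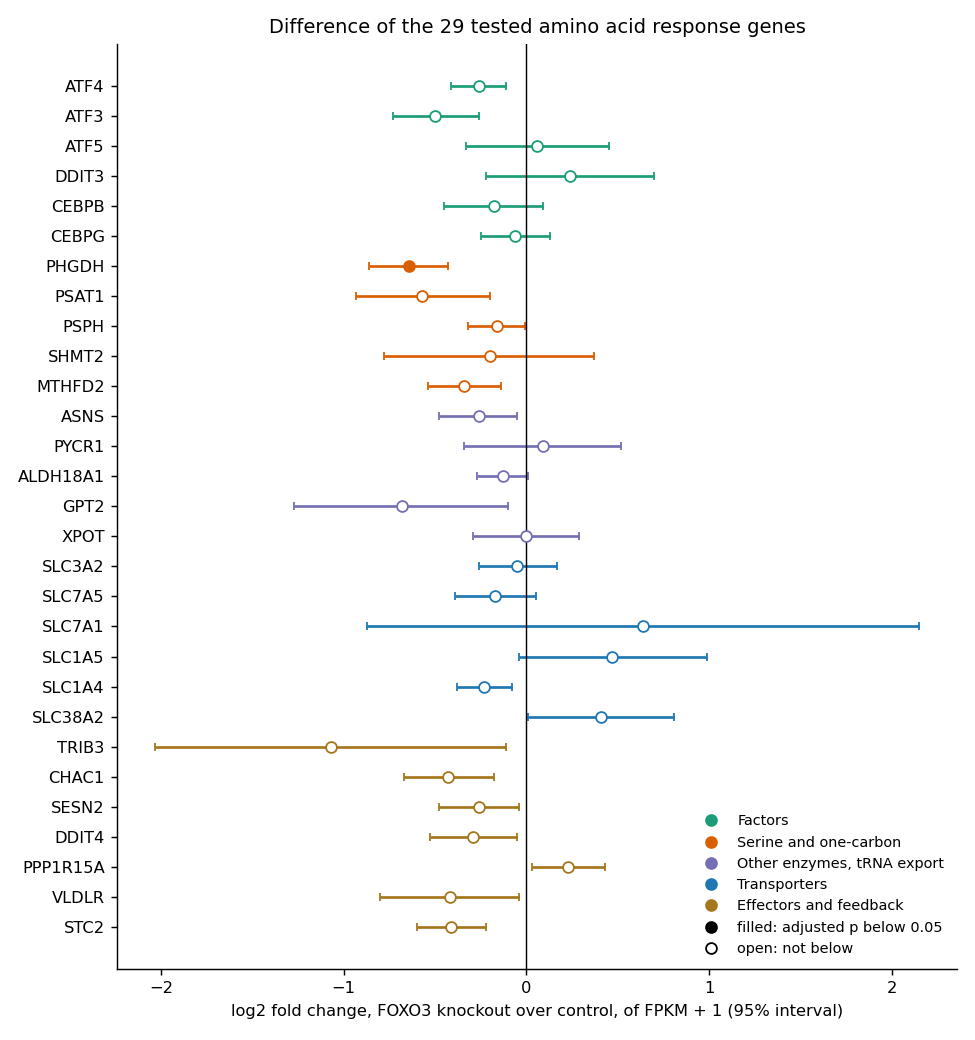
Log2 fold change (knockout over control, of FPKM + 1) of the 29 tested members with 95% intervals from limma, coloured by class, with a filled point for the 1 member past the adjusted threshold. PHGDH is filled at −0.64, all tested serine and one-carbon enzymes lie left of 0, and the interval of SLC7A1 runs from −0.87 to 2.15.

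Stress effectors and feedback genes separated the libraries in every member. Of 7 members, all tested, 0 changed at the adjusted threshold, 6 were lower and 1 higher, in each case without overlap between the groups and with an unadjusted p below 0.05. Over all names, the groups did not overlap in 14.7% (lower) and 17.7% (higher), and 10.7% were lower and 14.9% higher at that p. The median log2 fold change of the class was −0.41. TRIB3, a pseudokinase that binds ATF4 and restrains it, had the lowest log2 fold change of the 29 at −1.07 (SE 0.40, adjusted p = 0.164). It was at 3.51, 2.85 and 3.36 FPKM in knockout libraries, against 8.63, 14.3 and 3.74 FPKM in controls, where the third control was barely above the knockout libraries; the log2 fold change was −0.68 without the second control. CHAC1, which degrades glutathione, was at 1.13, 1.21 and 1.47 FPKM in knockout libraries, against 1.82, 2.05 and 2.29 FPKM in controls (log2 fold change −0.43, SE 0.10, adjusted p = 0.0725, or 0.0423 once the GC and length trend was removed).

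STC2, a secreted glycoprotein induced by PERK and ATF4, was at 1.56, 1.80 and 1.83 FPKM in knockout libraries, against 2.62, 2.62 and 2.64 FPKM in controls. Its control values were nearly identical, and the log2 fold change of −0.41 (SE 0.08) had an adjusted p of 0.0536, with 0.0432 under upper-quartile scaling, 0.0453 under quantile normalization and 0.0363 once the GC and length trend was removed. SESN2 and DDIT4, which both restrain mTORC1, were lower too. SESN2 averaged 4.69 ± 0.503 FPKM in knockout and 5.81 ± 0.267 FPKM in control libraries. DDIT4 averaged 21.9 ± 0.656 FPKM in knockout and 27.1 ± 3.52 FPKM in control libraries. VLDLR, a lipoprotein receptor, averaged 2.91 ± 0.649 FPKM in knockout and 4.21 ± 0.624 FPKM in control libraries (adjusted p 0.137 to 0.166 for these 3). PPP1R15A, which encodes GADD34, the phosphatase subunit that reverses eIF2 phosphorylation, was the 1 effector on the other side, at 8.96, 8.63 and 10.1 FPKM in knockout libraries, against 7.67, 7.42 and 8.03 FPKM in controls (log2 fold change 0.23, adjusted p = 0.150).

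Spread was wider in control than in knockout libraries at the median, for the members and for all names. The median coefficient of variation over the 29 members was 7.51% in knockout and 11.6% in control libraries, against 8.31% and 11.8% over all names. For SLC7A1, GPT2, TRIB3 and SLC1A5, the wide intervals came with control libraries far apart: the first control stood away from the other controls for SLC7A1 and GPT2 and the third for SLC1A5, while the 3 controls of TRIB3 all differed. Log2 fold changes of all names followed transcript GC content, with a Spearman rho of −0.389 across 11113 names that share the same 6 libraries, and −0.309 without the second control. Among the 29 members rho was −0.0527. Their median transcript GC content was 55.4%, against 49.3% over all names. Once the GC and length trend was removed, 16 of the 29 were lower without overlap, where the background was 17.7%.

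Of the 8 members with a TGATGNAA element in a promoter, 4 were lower in knockout libraries without overlap (ATF3, ASNS, CHAC1 and SLC1A4) and 4 overlapped between groups (CEBPG, SLC3A2, SLC7A1 and SLC1A5), next to 55.2% of all tested members and 14.7% of all names lower without overlap. Of these, ATF3 met the limit for testing only through its control libraries. The other members with a RefSeq entry had 0 such letters in the windows searched. Among them ATF4, PHGDH, PSAT1, MTHFD2, ALDH18A1, TRIB3, SESN2, DDIT4, VLDLR and STC2 were lower without overlap. ATF5, DDIT3, CEBPB, XPOT, SLC7A5 and SLC38A2 overlapped between groups, and PPP1R15A was higher without overlap. SLC6A9 was lower without overlap but was below the limit for testing.

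Cytosolic aminoacyl-tRNA synthetases charge tRNAs with amino acids, and several of them are known ATF4 targets. Of 20 tested genes 3 fell, 0 rose and 17 did not pass, where 1.30% of all names fell; 15 had a negative difference (median −0.05 on the log2 scale), and 7 were lower without overlap (35%, background 14.7%). AARS, the alanyl-tRNA synthetase, was at 31.3, 30.1 and 31.4 FPKM in knockout libraries, against 45.6, 46.9 and 47.3 FPKM in controls. This was a fall of 0.58 on the log2 scale with a small error (log2 fold change −0.58, SE 0.06, adjusted p = 0.00802), and it stayed past the threshold in 5 of 6 fits that left out 1 library (adjusted p = 0.0511 without the second knockout). CARS, the cysteinyl-tRNA synthetase, fell to 7.03 ± 0.130 FPKM in knockout libraries, against 10.6 ± 0.540 FPKM in controls (log2 fold change −0.53, adjusted p = 0.0205). YARS, the tyrosyl-tRNA synthetase, fell to 18.6 ± 0.604 FPKM in knockout libraries, against 24.7 ± 0.992 FPKM in controls (log2 fold change −0.39, adjusted p = 0.0357). The calls of CARS and YARS held in 1 of the 6 fits with a library left out, that without the first control, with adjusted p up to 0.101 and 0.155. The number of synthetase genes that fell was 5 under upper-quartile scaling, under quantile normalization and once the GC and length trend was removed. Over all names 260, 289 and 385 fell in these fits, against 145 in the main fit. The number was 0 without the second knockout library and with replicate numbers fitted as a block, where 31 and 11 of all names fell.

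**Figure D4:**
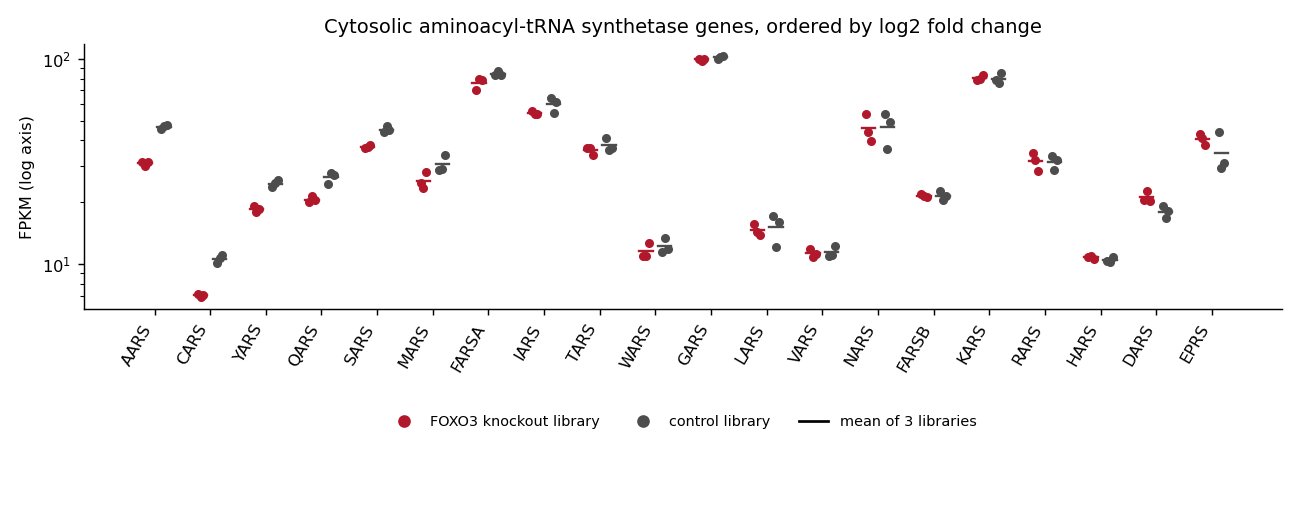
Level of the 20 cytosolic aminoacyl-tRNA synthetase genes in FPKM on a log axis, ordered by log2 fold change, with knockout libraries left (red) and control libraries right (grey) for each gene and a line at each mean. AARS, CARS and YARS, at the left, are the genes that fell, and most others overlap between groups.

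The other arms of the unfolded protein response, run by ERN1, XBP1 and ATF6, control chaperone and degradation genes. Of 16 tested genes of these arms 2 rose, 1 fell and 13 did not pass, where 1.38% of all names rose and 1.30% fell; 11 had a positive and 5 a negative difference, with a median of 0.19 on the log2 scale. Calreticulin (CALR) was at 486, 487 and 523 FPKM in knockout libraries, against 315, 283 and 244 FPKM in controls (log2 fold change 0.84, SE 0.10, adjusted p = 0.0171). HSPA5, the chaperone BiP, rose to 121 ± 1.18 FPKM in knockout libraries, against 94.9 ± 1.42 FPKM in controls (log2 fold change 0.35, adjusted p = 0.0254, and 0.123 once the GC and length trend was removed). EDEM1, which directs misfolded glycoproteins to degradation, fell to 18.3 ± 0.482 FPKM in knockout libraries, against 28.4 ± 3.41 FPKM in controls (adjusted p = 0.0319). The calls of CALR and EDEM1 held in 2 of the 6 fits with a library left out and that of HSPA5 in 1, with adjusted p up to 0.0755, 0.123 and 0.126.

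Genes upstream of ATF4 gave 0 calls over all 6 libraries. Of 17 tested genes for eIF2 subunits, eIF2 kinases and their regulators, 1 was higher and 0 lower at an unadjusted limma p below 0.05; EIF2S1, the subunit that is phosphorylated, averaged 41.1 ± 1.54 FPKM in knockout and 35.3 ± 1.66 FPKM in control libraries (adjusted p = 0.111), and its log2 fold change of 0.21 turned to −0.06 once the GC and length trend was removed. That correction brought 1 gene of the list past the threshold, the GCN2 kinase gene EIF2AK4, named here after its values were seen (log2 fold change −0.30, adjusted p = 0.0446, against −0.17 and 0.38 without the correction). Over all names 10.7% were lower and 14.9% higher at an unadjusted limma p below 0.05, the shares to set beside each such count here. Amino acid sensing by mTORC1 gave 0 calls among 22 genes, 0 of them at that unadjusted p. Its smallest p was that of RRAGD, a Rag GTPase, at 9.67 ± 0.375 FPKM in knockout and 6.38 ± 2.92 FPKM in control libraries (log2 fold change 0.60, adjusted p = 0.197), which passed without the first control (0.91, adjusted p = 0.0142). Other folate enzymes gave 0 calls among 16 (3 higher and 2 lower at an unadjusted limma p below 0.05), with DLD, a subunit of the glycine cleavage system, at 22.8 ± 2.15 FPKM in knockout and 16.3 ± 2.38 FPKM in control libraries (log2 fold change 0.47, adjusted p = 0.0823; 0.25 once the GC and length trend was removed, and past the threshold without the first control, adjusted p = 0.0337). Among 9 tested amino acid transporters outside the 33, 0 were called (1 higher and 1 lower at an unadjusted limma p below 0.05), and SLC43A1, a carrier of branched-chain amino acids, averaged 3.12 ± 0.494 FPKM in knockout and 4.94 ± 0.221 FPKM in control libraries (adjusted p = 0.0553, with 0.0455 under upper-quartile scaling and 0.0392 under quantile normalization). Of 10 genes of cysteine and glutathione synthesis, breakdown, use and transport 1 fell, where 1.30% of all names fell. It was CBS, which joins serine to homocysteine, at 2.14, 1.84 and 1.90 FPKM in knockout libraries, against 3.17, 3.26 and 3.51 FPKM in controls (log2 fold change −0.54, SE 0.08, adjusted p = 0.0291, and 0.0336 to 0.137 with 1 library left out). In that list 4 were lower and 6 higher, and 6 lower and 4 higher once the GC and length trend was removed, when CTH also fell (adjusted p = 0.0398).

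Markers of other cell types differed between the groups in places. CTSG, a granule protease, fell to 38.4 ± 0.825 FPKM in knockout libraries, against 65.3 ± 9.75 FPKM in controls (SD, n = 3 each; limma adjusted p = 0.0275), a call that held in 2 of 6 fits with a library left out (adjusted p up to 0.12). Of the 9 T lineage markers 1 rose, CD2, and 8 did not pass, where 1.38% of all names rose. The call of CD2 held in 1 of those 6 fits (adjusted p up to 0.098). Without overlap 4 of the 9 were higher and 0 lower, where the background was 17.7% and 14.7%. CD3D averaged 212 FPKM in knockout and 170 FPKM in control libraries. Its limma adjusted p was 0.0671, and 0.00928 once the GC and length trend was removed. The summed level of 5 granulocyte markers, which was nearly all CTSG, was 37.6 to 39.3 FPKM in knockout and 57.7 to 76.3 FPKM in control libraries, with ELANE, AZU1 and PRTN3 at the floor in all 6. The summed level of 5 B lineage markers, mostly CD79A, was 26.2 to 33.1 FPKM in knockout and 36.7 to 44.4 FPKM in control libraries. Their part in the differences of the amino acid response genes was not tested.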

How the data were processed

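RNA-seq libraries from total RNA (an mRNA kit, per the labels) were 6 in number, 3 of each genotype. The authors deposited FPKM per gene, per the file headers. The submitters' processing notes name hg38, HTSeq, Cufflinks 2.1.1 and Bowtie 0.12.9 without saying which step each served. Of 56418 rows, 20432 carry identifiers of a merged assembly, so a change of isoform can move a value. A floor of 0.0001 FPKM filled 60.7% to 62.4% of rows in each library. Identical rows of a name were dropped (4865) and the rest summed. FPKM holds no counts: in rows with 1 transcript, FPKM times length came in steps read as aligned bases (74.0% to 80.8% of low values within 0.1 of a whole step), which gave the depth but no read counts, so no count model was run.

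Values of log2(FPKM + 1) were fitted by genotype alone in limma 3.58.1 (R 4.3.3; two-sided, variance allowed to follow the mean). P-values were Benjamini-Hochberg adjusted over names averaging at least 1 FPKM and called at 0.05; this scale understates changes of low genes. The procedure was tested on simulated data with independent noise, the same variance in both groups and no GC trend. That simulation therefore does not cover the GC trend or the wider control spread of these data. Alternatives changed the pseudocount, filter, scaling, trend, block, row choice, GC and length correction (splines with 4 degrees of freedom, GENCODE 29) and left out each library. Members and lists were chosen with earlier results of these data known. All 33 members are named, and from each other list the genes past the threshold or the 1 with the smallest p. The notes give neither strand nor the handling of shared reads. Tables and plots were made in Python 3.11.15 with matplotlib 3.10.9 and pandas 2.3.3.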

Additional observations from a re-analysis of the deposited data

How the results depend on the processing

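The median log2 fold change of the members was −0.25 to −0.16 in every fit run, and 21 to 23 were lower in each fit with 29 members. The number changed was 3 with upper-quartile scaling, 2 with quantile normalization, 3 without the variance trend, 7 with the GC and length trend removed, and 0 to 2 with 1 library left out. Over all names, 299 changed, against 193 with no filter, 542 with quantile normalization, 755 with the GC and length trend removed and 68 to 926 with 1 library left out. Members lower at an unadjusted limma p below 0.05 numbered 9 to 12 with 1 library left out, against 15 with all. The background in those fits was 7.44% to 10.9% of all names, against 10.7% with all libraries. Members lower without overlap numbered 15 to 19 with 1 library left out, against 16 with all. There the background was 17% to 21.6% of all names, against 14.7% with all libraries. With the replicate block 0 members and 27 names changed, and 0 members and 32 names together with removal of the GC and length trend. Deviations of same-numbered libraries correlated at 0.0984, −0.0392 and 0.0162, within the range of −0.185 to 0.155 for the other pairs. These values show no pairing by number, but with 3 libraries per group they cannot tell whether a number marks a shared culture or day. Alternatives for separated groups, unadjusted counts, list medians and other lists were chosen after seeing the data. With a pseudocount of 0.1 the log2 fold changes of ATF3 and CHAC1 were −0.90 and −0.65. Causes were not tested. Depth limits members under 1 FPKM.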
